A study of Mus musculus with 6 samples.

Results

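The 26S proteasome and the SCF ubiquitin ligase were examined at the level of mRNA through 54 of the 55487 genes in the count table. The genes were chosen by name. They were the 50 protein-coding genes whose mouse symbol begins with Psm, a letter from a to g and a digit, together with Skp1a, Cul1, Rbx1 and Cand1. One of them, Psmc3ip, encodes a cofactor of meiotic recombination and is no proteasome gene; it matched by spelling only. By symbol the other 53 fell into 8 alpha and 11 beta subunits of the 20S core and 6 ATPases of the 19S cap. The rest were 14 Psmd genes, 5 activators, 1 inhibitor, 4 Psmg assembly chaperones and the 4 SCF genes. The Psmd genes are taken as the non-ATPase group of the cap, but some, Psmd9 and Psmd10 among them, encode chaperones of its assembly.

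RNA was taken from D6AdP cells, a line of mouse embryonic stem (ES) cells, at 0, 3 and 6 h of 500 nM 5-Ph-IAA, an auxin analog, with 2 libraries at each time. All 3 groups, the 0 h cells included, carried DDX6-AID-mCherry on both Ddx6 alleles, DCP1a-EGFP on one Dcp1a allele and an OsTIR1-FLAG transgene whose promoter is not given in the sources used here. All were plated on mitomycin-treated fibroblast feeder cells in medium with PD0325901, CHIR99021 and leukemia inhibiting factor, and polyA RNA of whole wells was sequenced. The analog, any loss of tagged DDX6, handling and hours in culture changed together, so their parts cannot be told apart in these groups. In such bulk RNA fewer cells of a type and less RNA per cell cannot be told apart either.

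The proteasome degrades proteins marked with ubiquitin chains. Alpha rings form the gate of its barrel-shaped core, beta rings hold the cutting sites, and the 19S cap binds, unfolds and feeds in the substrate. SCF ligases attach the chains: SKP1 holds an interchangeable F-box protein that chooses the substrate, the scaffold CUL1 joins SKP1 to the RING protein RBX1, and RBX1 recruits the ubiquitin-loaded E2 enzyme. CAND1 binds CUL1 that lacks NEDD8 and exchanges one F-box module for another. OsTIR1 is a plant F-box protein that joins the host's SKP1, so in a degron line this machinery destroys the tagged protein when an auxin is present.

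The libraries held 16357142 to 21846959 counts, and the 3 counts taken as the limit of detection stood for 0.139 to 0.181 CPM, the counts of a gene scaled to a common library size. Ddx6 mRNA itself was at 267.5 and 249.9 CPM at 0 h, 268.6 and 271.4 CPM at 3 h and 258.2 and 247.1 CPM at 6 h. It was not called changed at 3 h or at 6 h (adjusted p = 0.626 and 0.604 by edgeR's quasi-likelihood test). The degron acts on the protein, so the mRNA does not check the labels. All 10 ES cell markers were detected, with a summed level of 4336 and 4522 CPM at 0 h, 4620 and 4578 CPM at 3 h and 4167 and 4342 CPM at 6 h. Of these 10, 3 were called higher and 4 lower at 6 h against 0 h, beside 9.92% and 12.3% of all genes tested. Against 3 h, 4 of the 10 were lower at 6 h, beside 11.7% of all genes. The part of a shift in ES cell RNA in the falls below was not tested. The 16 feeder fibroblast markers were all detected too, at a sum of 19530 and 17950 CPM at 0 h, 17480 and 17110 CPM at 3 h and 19410 and 17520 CPM at 6 h. At 3 h against 0 h none of the 16 was called by edgeR or by DESeq2. But 13 were at an unadjusted p under 0.05 by edgeR, beside 1702 of all 15748 genes tested. The list median log2 fold change was -0.12. For 6 h against 0 h neither tool called any. By edgeR 2 were at an unadjusted p under 0.05, beside 5432 of all 15748 genes tested. With library totals 2 were called higher, beside 2102 of all genes. Against 3 h, 5 of 16 were higher at 6 h, beside 9.71% of all genes tested. With library totals 11 were higher, beside 2046 of all 15748 genes. Feeder RNA was thus present in every library, and its share of each level below is not known. The 5 haematopoietic markers summed to 46.6 to 62.9 CPM over the 6 libraries, and none of them was at 0.

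Of the 54 genes, 51 passed the filter on low counts and were tested among 15748 genes. At 3 h none of the 51 was called changed against 0 h at an adjusted p under 0.05 by edgeR's quasi-likelihood test, and the lowest adjusted p was 0.559. None was at an unadjusted p under 0.05, beside 1702 of the 15748 genes, and DESeq2 called none. Over all genes tested, 0.184% were called in that comparison. At 6 h against 0 h, 4 of the 51 were called, all lower: Cand1, Rbx1, Psmb3 and Psmd11. With library totals in place of TMM scaling 5 were called, 3 of them lower (Cand1, Rbx1 and Psmb3) and 2 higher (Cul1 and Psmg3). The 4 calls are 7.84% of these genes, beside 22.2% of all genes tested, made up of 9.92% higher and 12.3% lower. Against the 3 h libraries, 3 were called at 6 h, all lower: Cand1, Rbx1 and Psma2. That is 5.88%, beside 21.4% of all genes tested, with 9.71% higher and 11.7% lower.

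The differences were small. The median size of the log2 fold change, whatever its sign, was 0.0466 for the 51 genes at 6 h against 0 h and 0.142 for all genes tested. At 3 h against 0 h it was 0.0225, beside 0.0759 for all genes. The ratio of the highest to the lowest of the 6 libraries had a median of 1.08 for the 51 genes and 1.25 for all genes. Most of the 51 are abundant, and abundant genes vary less from counting alone. Among the 3784 genes whose log2 CPM averaged 6 or more, a limit chosen after the data were seen, the ratio had a median of 1.07 for the 37 of the 51 that lie there and 1.12 for all of them. In that range 4 of the 37 were called at 6 h against 0 h, or 10.8%, beside 34.9% of all abundant genes. Against 3 h, 3 of the 37 were called, or 8.11%, beside 34.5%.

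A missed threshold does not show that a level stayed the same, so the 95% interval of each fold change was set against a band of 1.2-fold in either direction, also chosen after the data were seen. At 3 h against 0 h the interval lay wholly within the band for 46 of the 51 genes, or 90.2%, beside 49.9% of all genes tested. At 6 h against 0 h it did so for 42 genes, or 82.4%, beside 36.2% of all genes. Against 3 h the count at 6 h was 47, or 92.2%, beside 36.5%. Weakly expressed genes have wide intervals, which lowers the share of all genes. Among the abundant genes above, the interval lay within the band for 36 of 37 proteasome and SCF genes at 6 h against 0 h, or 97.3%, beside 79.9% of all abundant genes. For 3 h against 0 h it did so for all 37, beside 96.5%, and for 6 h against 3 h also for all 37, beside 79.7%.

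The balance of small differences at 6 h depended on the scaling. With trimmed mean of M values (TMM) factors, 15 of the 51 log2 fold changes against 0 h were above 0 and 36 below, with a median of -0.02, while with plain library totals 31 were above and 20 below, with a median of 0.01. Among the 3784 abundant genes the median with TMM factors was -0.049 at 6 h against 0 h, beside -0.030 for the 37 of the 51 there. For all genes tested it was 0.002. Both 6 h libraries were above both 0 h libraries for 11 genes, or 21.6%, and below them for 21, or 41.2%. Over all genes tested these shares were 29.6% and 29.9%. They were not taken for the abundant genes alone. The remaining 19 of the 51 overlapped. With library totals the groups did not overlap for 26 genes, and 17 of these were higher at 6 h. Summed over all 54 genes, the level was 7201 and 7231 CPM at 0 h, 7231 and 7275 CPM at 3 h and 7028 and 7061 CPM at 6 h.

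**Figure D1:**
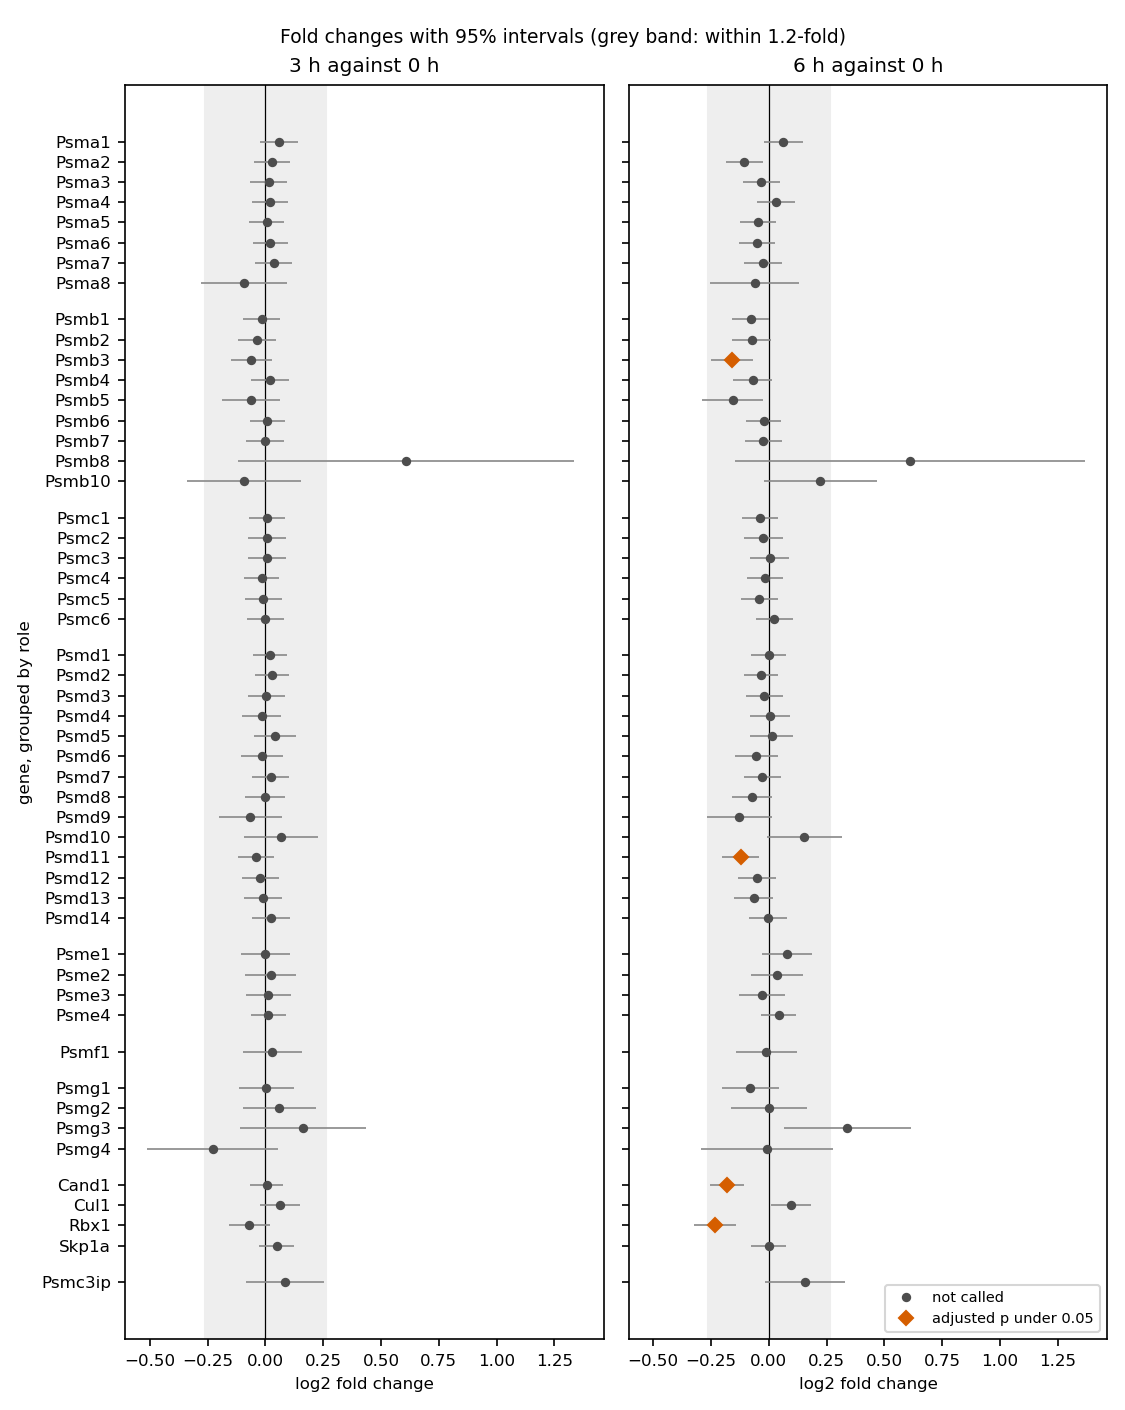
Log2 fold change of each of the 51 tested proteasome and SCF genes at 3 h (left) and at 6 h (right) against 0 h, grouped by role, with edgeR estimates as points, their 95% intervals as bars and the 1.2-fold band in grey. No gene was called at 3 h, and the 4 called at 6 h, drawn as diamonds, were Cand1, Rbx1, Psmb3 and Psmd11, all lower.

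Cand1 and Rbx1, both SCF genes, had the lowest adjusted p values of the set at 6 h against 0 h. Cand1 fell by 11.8% and Rbx1 fell by 14.9%, while Skp1a and Cul1 did not pass the test. Skp1a, the adaptor that receives F-box proteins, had 286 and 287 CPM at 0 h, 291 and 301 CPM at 3 h and 285 and 287 CPM at 6 h. The 6 h and 0 h libraries overlapped. Its fold change at 6 h against 0 h lay between 0.948 and 1.05 (95% interval, edgeR adjusted p = 0.992), and the 3 h log2 fold change was 0.05 (edgeR adjusted p = 0.67). Cul1, the scaffold, had 152 and 150.1 CPM at 0 h, 156 and 160.2 CPM at 3 h and 156 and 167 CPM at 6 h. Every 3 h and 6 h library lay above both 0 h libraries, but the difference did not pass the test. Its log2 fold change at 6 h against 0 h was 0.10 ± 0.04 (standard error, SE; edgeR adjusted p = 0.104), a fold change between 1.01 and 1.13. It was called higher under 3 of the 13 alternatives, namely with library totals, with the feeder covariate and without the first 6 h library (adjusted p = 0.0292, 0.0296 and 0.0254).

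Rbx1, the RING subunit, had 78.2 and 78.3 CPM at 0 h, 74.6 and 74.5 CPM at 3 h and 65.8 and 67.3 CPM at 6 h. The 3 times did not overlap, and the 6 h libraries were the lowest. Rbx1 fell at 6 h to a mean of 66.5 ± 1.04 CPM, against 78.2 ± 0.0606 CPM at 0 h (SD of 2 libraries each). The log2 fold change was -0.23 ± 0.04 (SE), a fold change between 0.798 and 0.907, with an edgeR adjusted p of 0.00106. It was called under each of the 13 alternatives run. At 3 h its log2 fold change was -0.07 ± 0.04 (edgeR adjusted p = 0.589). Against 3 h, Rbx1 was lower at 6 h by a log2 fold change of -0.16 ± 0.04 (edgeR adjusted p = 0.0135). That call was lost with DESeq2 (adjusted p = 0.108), with the feeder markers as a covariate (0.137) and without either 3 h library or the first 6 h library (0.0903, 0.0908 and 0.0992). The log2 fold change with the covariate was -0.14, and over all 13 alternatives it ran from -0.18 to -0.13. A pseudogene, Rbx1-ps, held 11 to 20 counts per library.

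Cand1, the exchange factor, was at 372 and 378 CPM at 0 h, 379 and 375 CPM at 3 h and 330.0 and 332 CPM at 6 h. The 0 h and 3 h libraries lay together and both 6 h libraries lay below all 4 of them. Cand1 fell at 6 h to 330.8 ± 1.21 CPM, against 375.1 ± 4.57 CPM at 0 h (SD of 2 libraries each). The log2 fold change was -0.18 ± 0.03 (SE), a fold change between 0.839 and 0.927, with an edgeR adjusted p of 0.00112. Against 3 h it was -0.19 ± 0.03 with an edgeR adjusted p of 0.00102, and at 3 h against 0 h it was 0.01 ± 0.03 with 0.971. Both falls were called under each of the 13 alternatives, library totals and the feeder covariate included. No exon of Cand1 or Rbx1 overlaps another annotated gene.

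**Figure D2:**
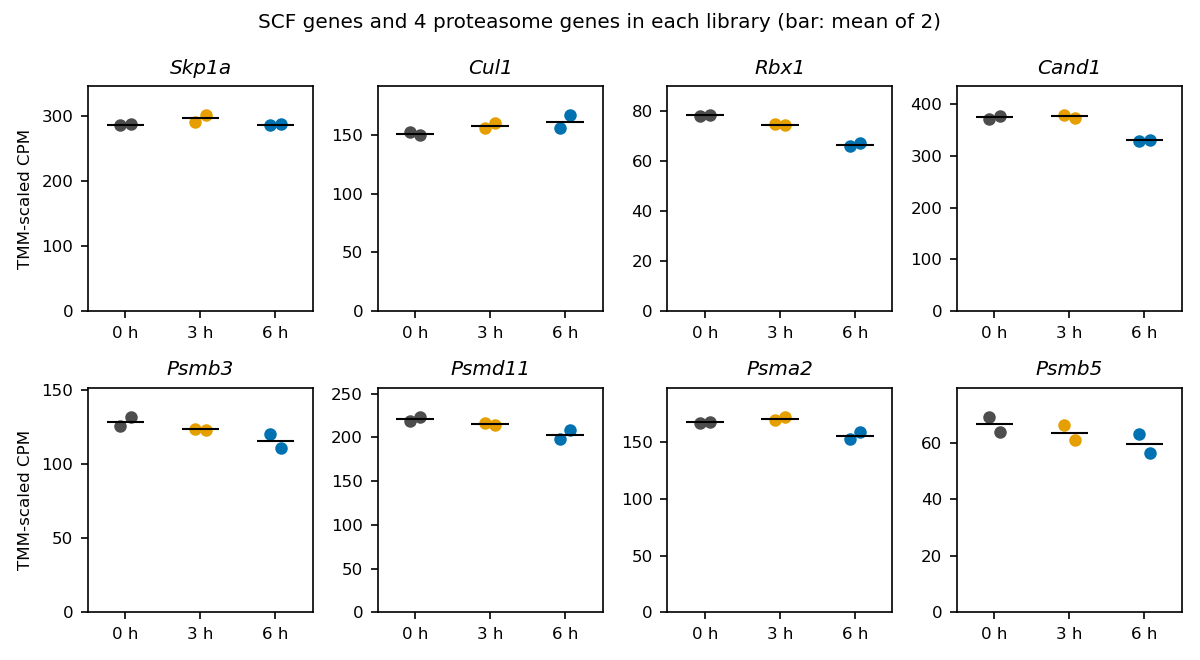
TMM-scaled CPM of the 4 SCF genes (upper row) and of Psmb3, Psmd11, Psma2 and Psmb5 (lower row) at 0, 3 and 6 h, where points are libraries and bars are means of 2. Rbx1 and Cand1 were lowest in both 6 h libraries, while the 6 h and 0 h libraries of Skp1a overlapped and Cul1 did not pass the test.

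On the build GRCm38, Cand1 (ENSMUSG00000020114) lies on the minus strand of chromosome 10 from 119199255 to 119240055 and Rbx1 (ENSMUSG00000022400) on the plus strand of chromosome 15 from 81466296 to 81476369. Their RefSeq promoters on GRCm38.p6, from 250 bases before to 50 bases after the start, are shown because these genes were the SCF genes called lower at 6 h. They are printed 5′ to 3′ on the strand of the gene, with matches to CCAAT and to TGACNNNGC, searched on both strands, in capitals. The Rbx1 promoter holds 1 CCAAT box, 52 bases before the start, and the Cand1 promoter holds no match.
Cand1, chr10:119240006-119240305, minus strand: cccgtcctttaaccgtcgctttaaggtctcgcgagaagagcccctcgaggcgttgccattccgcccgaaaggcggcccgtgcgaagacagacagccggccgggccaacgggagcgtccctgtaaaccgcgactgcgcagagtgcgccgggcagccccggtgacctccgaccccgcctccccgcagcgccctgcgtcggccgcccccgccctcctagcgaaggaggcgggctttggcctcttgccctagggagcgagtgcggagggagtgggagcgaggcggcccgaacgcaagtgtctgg
Rbx1, chr15:81466066-81466365, plus strand: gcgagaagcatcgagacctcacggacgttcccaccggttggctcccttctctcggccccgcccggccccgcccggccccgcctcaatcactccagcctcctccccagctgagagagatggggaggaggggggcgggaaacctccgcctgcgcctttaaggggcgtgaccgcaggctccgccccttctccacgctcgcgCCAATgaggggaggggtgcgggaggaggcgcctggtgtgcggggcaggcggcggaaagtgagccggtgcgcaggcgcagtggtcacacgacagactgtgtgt

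In the 20S core the alpha rings varied little. Psma1 to Psma7, which form the outer rings, lay between 118 and 173 CPM in every library. Per exon length at 0 h they ran from 43.2 RPKM (CPM per kilobase of exon) for Psma3 to 109 RPKM for Psma6. Psma2, which shapes the gate of the core, was the 1 alpha subunit called in any comparison. It had 167 and 168 CPM at 0 h, 169 and 172 CPM at 3 h and 153 and 159 CPM at 6 h. The pair at 6 h was the lowest.

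Against 3 h, Psma2 fell at 6 h by a log2 fold change of -0.13 ± 0.04 (SE, edgeR adjusted p = 0.0181). Against 0 h its log2 fold change was -0.11 with an adjusted p of 0.0539, just above the threshold. The call against 3 h was lost with library totals (0.0725), DESeq2 (0.0819), the feeder covariate (0.24) and without either 3 h library (0.0811 and 0.16) or the first 6 h library (0.143). In this same comparison 5 of the 16 feeder markers were higher at 6 h, at a summed level of 19410 and 17520 CPM, against 17480 and 17110 CPM at 3 h, and beyond the covariate their part in the result was not tested. Among the other alpha genes the log2 fold changes at 6 h against 0 h ran from -0.06 for Psma8 to 0.06 for Psma1, and their adjusted p values were all above the threshold.

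Psma8, the testis-specific alternative to Psma7, was at 12.3 to 13.5 CPM, or 5.27 RPKM at 0 h. Of the counts of Psma7 and Psma8 together, Psma8 made up 8.04% and 7.28% in the 0 h libraries, 7.10% and 6.96% in those of 3 h and 7.55% and 7.40% in those of 6 h. The Wilson 95% intervals of all 6 libraries overlapped. They cover counting error only.

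Psmb1 to Psmb7 build the beta rings. Their levels at 0 h ran from 34.5 RPKM for Psmb1 to 90.8 RPKM for Psmb2. Psmb3, a structural beta subunit, was called at 6 h. It had 126 and 132 CPM at 0 h, 124 and 123 CPM at 3 h and 120.4 and 111 CPM at 6 h. Both 6 h libraries lay below the other 4, but they were further apart from each other than the lower-valued 0 h library was from the higher-valued 6 h one.

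Psmb3 fell at 6 h against 0 h by a log2 fold change of -0.16 ± 0.04 (SE, edgeR adjusted p = 0.0133), a fold change between 0.842 and 0.954. The call was lost without the second 6 h library (0.205), without the second 0 h library (0.126) and with DESeq2 (0.0749). Without the second 6 h library the log2 fold change of Psmb3 was -0.09. Psmb1, Psmb2, Psmb4, Psmb5 and Psmb6 were lower in both 6 h libraries than in both 0 h libraries as well, as were 29.9% of all genes tested. None of them passed the test. Psmb1, Psmb2 and Psmb4 had log2 fold changes of -0.08, -0.07 and -0.07. Their adjusted p values were 0.147, 0.196 and 0.238.

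The 3 constitutive cutting subunits are Psmb5 with chymotrypsin-like activity, Psmb6 with caspase-like activity and Psmb7 with trypsin-like activity. Psmb5 had 69.1 and 63.8 CPM at 0 h, 66.3 and 60.8 CPM at 3 h and 63.1 and 56.2 CPM at 6 h. The 2 libraries of each time differed about as much as the times did, and the log2 fold change at 6 h against 0 h was -0.16 ± 0.06 (edgeR adjusted p = 0.0797). It ran from -0.07 without the second 6 h library to -0.23 without the first. Psmb5 was called lower under 5 of the 13 alternatives, among them those without the first 6 h library (0.0278) and without the second 0 h library (0.0316). Exons of Mir686 on the same strand cover part of Psmb5, 12.1% of its exon length, so its level is uncertain. Psmb6 averaged 148.4 CPM at 0 h, 149.3 CPM at 3 h and 146.2 CPM at 6 h, with a log2 fold change at 6 h against 0 h of -0.02 (edgeR adjusted p = 0.709). Psmb7 averaged 154.3, 154.1 and 151.8 CPM at those times and its log2 fold change was also -0.02 (edgeR adjusted p = 0.718). Exons of Nek6 on the other strand cover 11.8% of Psmb7.

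The immunoproteasome subunits Psmb8, Psmb9 and Psmb10 replace these 3 in cells that have met interferon. Psmb8 held 9 and 16 counts at 0 h, 19 and 21 counts at 3 h, then 14 and 19 counts at 6 h. Relative to 0 h, its log2 fold change at 3 h was 0.61 ± 0.34 (edgeR adjusted p = 0.559). The value at 6 h was 0.61 ± 0.36, with an adjusted p of 0.246. Other exons overlap 14.7% of Psmb8. Psmb9 held 6 and 7 counts at 0 h, 8 and 3 counts at 3 h, then 6 and 3 counts at 6 h, too few to be tested. Psmb10 was the most abundant of the 3, at 7.88 and 8.21 CPM at 0 h, 7.0 and 8.10 CPM at 3 h and 9.29 and 9.5 CPM at 6 h. The 6 h pair was the highest. The difference did not pass the test, with log2 fold changes of 0.22 ± 0.12 against 0 h (edgeR adjusted p = 0.187) and 0.32 ± 0.12 against 3 h (edgeR adjusted p = 0.0641). Under 2 of the 13 alternatives, library totals (0.0411) and a replicate block (0.0425), Psmb10 was called higher at 6 h against 3 h.

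Taken as a share of the counts of all 6 cutting subunits, the immunoproteasome genes made up 2.29% and 2.46% in the 0 h libraries, 2.18% and 2.47% in those of 3 h and 2.85% and 2.90% in those of 6 h. The shares at 6 h were the highest. Most of these counts were of Psmb10 alone. It held 152 of 167 and 177 of 200 immunoproteasome counts at 0 h. The numbers were 148 of 175 and 175 of 199 at 3 h, and 154 of 174 and 177 of 199 at 6 h. The Wilson 95% intervals were 2.46% to 3.30% and 2.53% to 3.33% at 6 h, against 1.97% to 2.65% and 2.14% to 2.82% at 0 h, so they overlapped. Fibroblasts can also express these genes, and the part of feeder RNA in the share was not tested. Psmb11, the beta subunit of thymic epithelium, had 1 count in each 0 h library, 1 and 0 counts at 3 h and none at 6 h, under the limit of detection in every library.

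**Figure D3:**
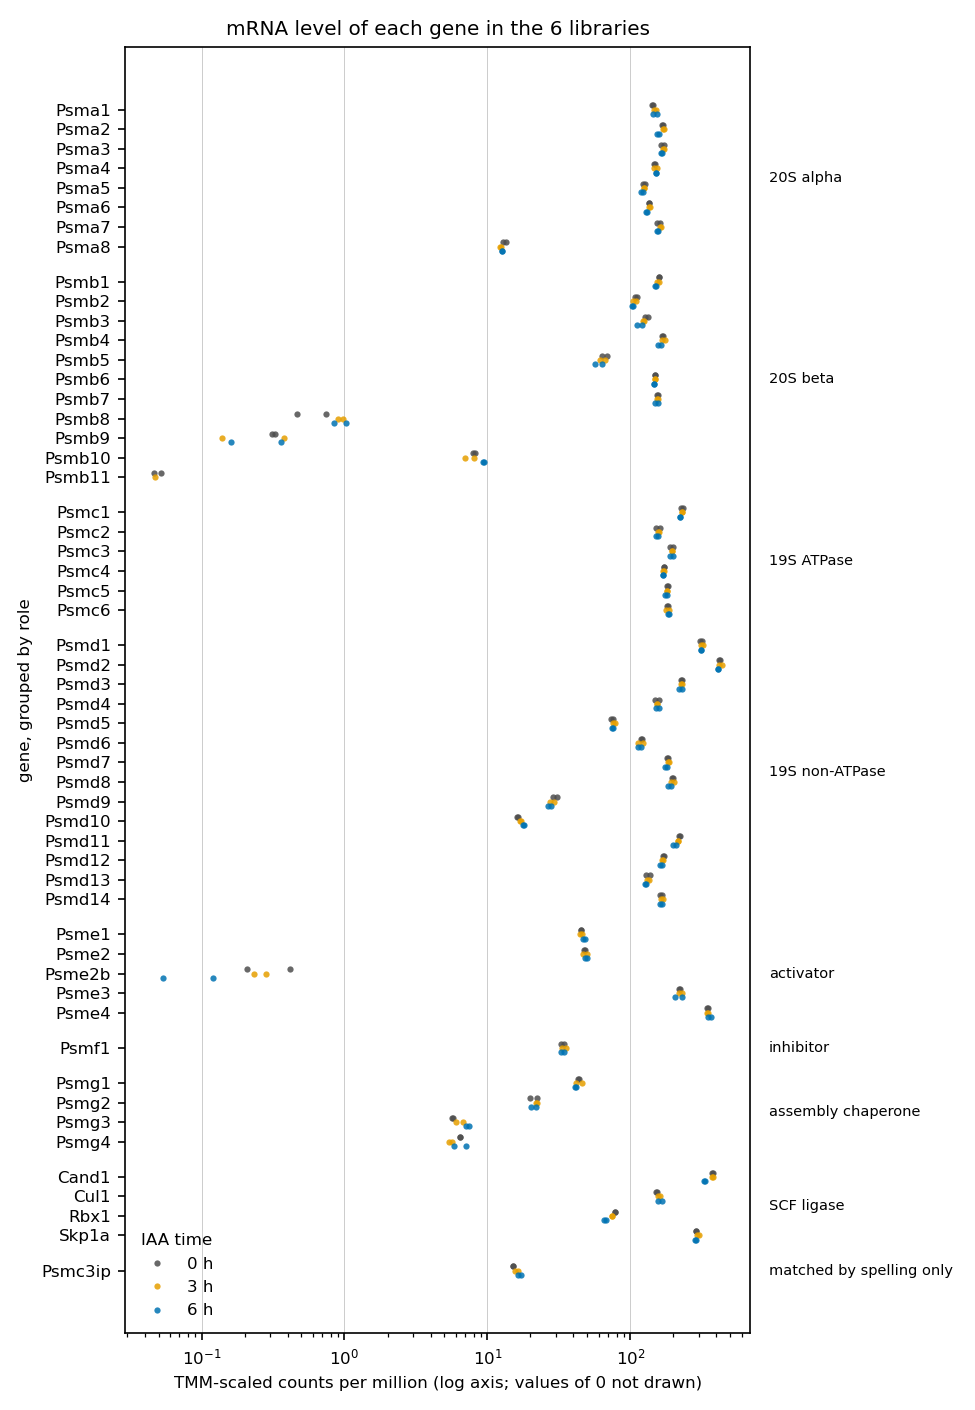
TMM-scaled CPM (log axis) of all 54 genes in each library, grouped by role, where points are libraries coloured by time and values of 0 are not drawn. Psma1 to Psma7 lay between 118 and 173 CPM and the ATPases between 151.5 and 232 CPM, with Psmb8, Psmb9, Psmb11 and Psme2b far below them.

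Proteasome genes are known for a shared control by the factor NRF1 (Nfe2l1), which binds antioxidant response elements, and many carry CCAAT boxes. RefSeq promoters on GRCm38.p6 were found for 46 of the 54 genes, in 51 promoters. None was found for Psma8, Psmb1, Psmb2, Psmb7, Psmc3, Psmd3, Psmd7 or Psmg2. These genes, the constitutive cutting subunit Psmb7 among them, were not searched for either motif. The core of the element, TGACNNNGC on either strand, was in 6 of the 51, or 11.8%, beside 12.4% of all 32851 promoters of that length. Those 6 belonged to Psmb5, Psmb6, Psmc6, Psmd12, Psmd9 and Psme4. CCAAT on either strand was in 16 of the 51, or 31.4%, beside 37.4%. The motifs can share bases at their ends, and a match is a description of the sequence only. The promoters of Psmb5 and Psmb6 are shown because they hold the element in a pair of cutting subunits of the core, with TGACNNNGC in capitals, 47 bases before the start in Psmb5 and 9 bases before it in Psmb6.
Psmb5, chr14:54617946-54618245, minus strand: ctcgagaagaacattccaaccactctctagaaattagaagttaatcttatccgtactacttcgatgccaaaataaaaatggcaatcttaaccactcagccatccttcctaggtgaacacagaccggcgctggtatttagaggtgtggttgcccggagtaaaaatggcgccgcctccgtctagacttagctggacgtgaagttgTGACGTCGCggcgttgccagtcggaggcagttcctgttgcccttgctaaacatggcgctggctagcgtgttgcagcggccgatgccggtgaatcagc
Psmb6, chr11:70525107-70525406, plus strand: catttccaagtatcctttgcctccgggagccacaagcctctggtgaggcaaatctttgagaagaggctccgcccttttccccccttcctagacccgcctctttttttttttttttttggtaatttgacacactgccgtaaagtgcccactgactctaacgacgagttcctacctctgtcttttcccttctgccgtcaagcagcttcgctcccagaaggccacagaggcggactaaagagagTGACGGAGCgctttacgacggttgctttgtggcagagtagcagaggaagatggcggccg

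The 6 ATPases of the 19S base, Psmc1 to Psmc6, form the ring that unfolds the substrate and threads it into the core. They lay between 151.5 and 232 CPM, and the highest library exceeded the lowest by 1.02-fold to 1.07-fold, gene by gene. Per exon length they ran from 31.1 RPKM for Psmc2 to 130.4 RPKM for Psmc5 at 0 h. None was called in any of the 3 comparisons and none reached an unadjusted p under 0.05; DESeq2 called none either. The lowest adjusted p at 6 h against 0 h was 0.464, for Psmc5, whose log2 fold change was -0.04. The interval of the fold change lay within 1.2-fold for all 6 in each of the 3 comparisons. Their summed level was 1125 and 1108 CPM at 0 h, 1108 and 1122 CPM at 3 h and 1108 and 1099 CPM at 6 h.

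The 14 Psmd genes, grouped by name, include the scaffold of the cap (Psmd1 and Psmd2) and ubiquitin receptors (Psmd4 among them). They also include the deubiquitinase that removes chains from substrates (Psmd14). They were spread over 4.10 RPKM for Psmd9, a chaperone of base assembly, to 103.9 RPKM for Psmd2 at 0 h. Psmd2 was also the highest of the 54 genes in CPM, with 409 to 436 CPM over the 6 libraries. Psmd1, Psmd4 and Psmd14 had log2 fold changes at 6 h against 0 h of -0.001, 0.005 and -0.003, and their adjusted p values were 0.99, 0.945 and 0.964. None of the 14 was called at 3 h.

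Psmd11, a lid subunit that is known to raise proteasome assembly in human ES cells, was called lower at 6 h. It had 219 and 224 CPM at 0 h, 216 and 214 CPM at 3 h and 199 and 208 CPM at 6 h. Both 6 h libraries lay below the other 4. The log2 fold change at 6 h against 0 h was -0.12 ± 0.04 (SE, edgeR adjusted p = 0.0299), a fold change between 0.869 and 0.972. It was called under 5 of the 13 alternatives. It was lost with DESeq2 (0.0981), with library totals (0.118), in the 4 libraries of these times alone (0.0626) and without the first or second 0 h library (0.0558 and 0.147), the first or second 3 h library (0.0593 and 0.0607) or the first 6 h library (0.184).

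The other Psmd genes did not pass the test. Psmd10, a base chaperone also called gankyrin, had 16.4 and 16.0 CPM at 0 h, 16.8 and 17.1 CPM at 3 h and 17.9 and 18.1 CPM at 6 h. Both 6 h libraries lay above the others and the log2 fold change against 0 h was 0.15 ± 0.08 (edgeR adjusted p = 0.172). Psmd9, at 26.6 and 27.7 CPM at 6 h, against 30.8 and 28.7 CPM at 0 h, had a log2 fold change of -0.13 ± 0.07 (edgeR adjusted p = 0.194), and 25.5% of its exon length overlaps Gm26745 on the other strand. Psmd3, Psmd5, Psmd6, Psmd7, Psmd8, Psmd12 and Psmd13 had adjusted p values of 0.232 to 0.88.

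Among activators, Psme1 and Psme2 form the ring known as PA28, Psme3 encodes the nuclear PA28 gamma and Psme4 encodes PA200. Psme1 had 45.2 and 45.3 CPM at 0 h, 44.7 and 45.6 CPM at 3 h and 46.9 and 48.5 CPM at 6 h. The 6 h libraries stood highest, with a log2 fold change against 0 h of 0.08 ± 0.05 (edgeR adjusted p = 0.297). Psme4 was at 344 to 364 CPM, Psme3 at 206 to 230 CPM and Psme2 at 46.7 to 49.9 CPM. Their adjusted p values at 6 h against 0 h were 0.43, 0.7 and 0.668. Psme2b, a near copy of Psme2, held 4 and 9 counts at 0 h, 6 and 5 counts at 3 h, then 2 and 1 counts at 6 h and was not tested, and reads it shares with Psme2 cannot be assigned with certainty. Psmf1, the inhibitor PI31, lay between 32.7 and 35.7 CPM, with a log2 fold change of -0.01 (edgeR adjusted p = 0.928).

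The chaperones Psmg1 to Psmg4 build the alpha ring of the core. Psmg3 had 5.65 and 5.75 CPM at 0 h, 6.01 and 6.75 CPM at 3 h and 7.42 and 7.03 CPM at 6 h. Levels at 6 h were above those of the other 4 libraries. The log2 fold change against 0 h was 0.34 ± 0.13 (edgeR adjusted p = 0.0719), and exons on the same strand overlap 9.68% of Psmg3. It was called higher with library totals (0.0473) and with the feeder covariate (0.0465). Psmg1, Psmg2 and Psmg4 had log2 fold changes of -0.08, -0.0004 and -0.01 at 6 h against 0 h, with adjusted p values of 0.351, 0.998 and 0.975. At this depth the interval for Psmg4 ran from 0.815-fold to 1.21-fold, so changes within that range are not excluded. Psmc3ip, the gene matched by spelling, was at 15.1 to 17.2 CPM and was not called in any comparison.

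Other genes of the ubiquitin system were examined in 7 lists. None of the genes in them was called at 3 h by edgeR or by DESeq2. By edgeR 7 of 61 F-box genes and 2 of 10 regulators were at an unadjusted p under 0.05, beside 1702 of all 15748 genes tested. At 6 h against 0 h the shares called, read beside 22.2% of all genes tested, ran from 0 of 10 genes of the COP9 signalosome to 5 of 10 genes in each of a pair of lists. Counts by direction are to be read beside 9.92% higher and 12.3% lower of all genes tested. The lists were chosen with results of these data known, and no list was tested as a set. Summed levels and counts are descriptions.

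With 5 of 10 genes called, the list of NRF1 and NRF2 regulators, the factors known to switch on proteasome genes and their partners, had all 5 lower at 6 h against 0 h, with a median log2 fold change of -0.11. With library totals, 3 were lower and 1 higher, with a median of -0.07. Against 3 h with TMM factors, 4 were lower at 6 h and 1 higher, beside 11.7% and 9.71% of all genes tested. Mafg, a small Maf protein that pairs with NRF1 and NRF2, had 164 and 159 CPM at 6 h, against 212 and 226 CPM at 0 h, a log2 fold change of -0.44 ± 0.04 (edgeR adjusted p = 1.34e-06). Bach1, a repressor that competes for the same element, had 69.04 and 72.4 CPM at 6 h, against 86.9 and 93.9 CPM at 0 h, a log2 fold change of -0.35 (edgeR adjusted p = 7.11e-05). Ddi2, the protease that activates NRF1, had 78.6 and 84.4 CPM at 6 h, against 100.1 and 99.8 CPM at 0 h, a log2 fold change of -0.29 (edgeR adjusted p = 0.000137). These 3 were called under all 13 alternatives. Nfe2l1 itself had 309.9 and 299.8 CPM at 6 h, against 330 and 327 CPM at 0 h, and its log2 fold change of -0.11 (edgeR adjusted p = 0.0402) was called under only 5 of the 13, with an adjusted p of 0.105 in DESeq2 and as high as 0.184 without the first 0 h library.

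The substrate receptors of SCF gave 10 called genes of 61 tested F-box genes at 6 h against 0 h, or 16.4%, with 3 higher and 7 lower. With library totals 8 were higher and 6 lower. Fbxo15, an ES cell F-box gene, had 108 and 115 CPM at 6 h, against 151 and 155 CPM at 0 h, a log2 fold change of -0.46 (edgeR adjusted p = 6.73e-07). Fbxo10 was higher, at 11.6 and 12.3 CPM at 6 h, against 8.35 and 7.46 CPM at 0 h, a log2 fold change of 0.60 (edgeR adjusted p = 0.000834). Fbxo33 was lower by a log2 fold change of -0.30 (edgeR adjusted p = 0.00142). These 3 were called under all 13 alternatives.

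Other cullin ligases had 3 genes higher and 2 lower of 10. Rnf7, the RING protein that serves CUL5 as RBX1 serves CUL1, had 57.3 and 57.7 CPM at 6 h, against 65.5 and 70.9 CPM at 0 h, a log2 fold change of -0.25 (edgeR adjusted p = 0.00204). Cand2, the paralog of Cand1, moved the other way, with 30.3 and 28.0 CPM at 6 h, against 22.6 and 21.3 CPM at 0 h, a log2 fold change of 0.41 (edgeR adjusted p = 0.00195). Cul7 was higher by a log2 fold change of 0.22 (edgeR adjusted p = 0.000718). These 3 were called under all 13 alternatives. Cul3 was lower by -0.16 (edgeR adjusted p = 0.0118), and this call was lost without the first 6 h library (0.13).

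NEDD8 on CUL1 switches SCF on, and the COP9 signalosome removes it. Of 11 neddylation genes, 3 were higher and none lower at 6 h against 0 h. Dcun1d4, a factor that promotes NEDD8 transfer, had a log2 fold change of 0.28 (edgeR adjusted p = 0.003) and was called under all 13 alternatives. Ube2m, the NEDD8 E2 that works with RBX1, had 0.12 (edgeR adjusted p = 0.034) and was called under 6 of the 13, with 0.22 in DESeq2. Senp8, a NEDD8 protease, had 0.45 (edgeR adjusted p = 0.0359) and was called under 9, with 0.204 in DESeq2. None of the 10 COP9 genes was called at 6 h against 0 h by edgeR or by DESeq2. By edgeR 3 were at an unadjusted p under 0.05, beside 5432 of all 15748 genes tested. Against 3 h, Cops8 was lower by -0.13 (edgeR adjusted p = 0.0326), a call kept under 6 of the 13 and at 0.199 in DESeq2.

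Of 19 proteasome-associated factors, 1 was higher and 4 were lower at 6 h against 0 h. Zfand5, an activator of the 26S proteasome, had a log2 fold change of -0.23 (edgeR adjusted p = 0.000584). Zfand2a, a stress-induced proteasome partner also called AIRAP, had -0.33 (edgeR adjusted p = 0.00174). Ecpas, a scaffold that binds proteasomes, had 0.26 (edgeR adjusted p = 0.00205). Akirin2, which brings proteasomes into the nucleus, had -0.22 (edgeR adjusted p = 0.00273). All 4 were called under all 13 alternatives.

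Among 13 ubiquitin, E1 and E2 genes, 4 were lower and none higher at 6 h against 0 h, while with library totals 1 was lower and 1 higher and DESeq2 called 1. Ubb, a polyubiquitin gene, had a log2 fold change of -0.13 (edgeR adjusted p = 0.0209), Cdc34, the E2 of SCF, had -0.13 (0.0359) and Rps27a, which encodes ubiquitin fused to a ribosomal protein, had -0.10 (0.0442). These 3 were called under 8, 6 and 4 of the 13 alternatives, and DESeq2 called none of them, at adjusted p values of 0.0538, 0.12 and 0.12.

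**Figure D4:**
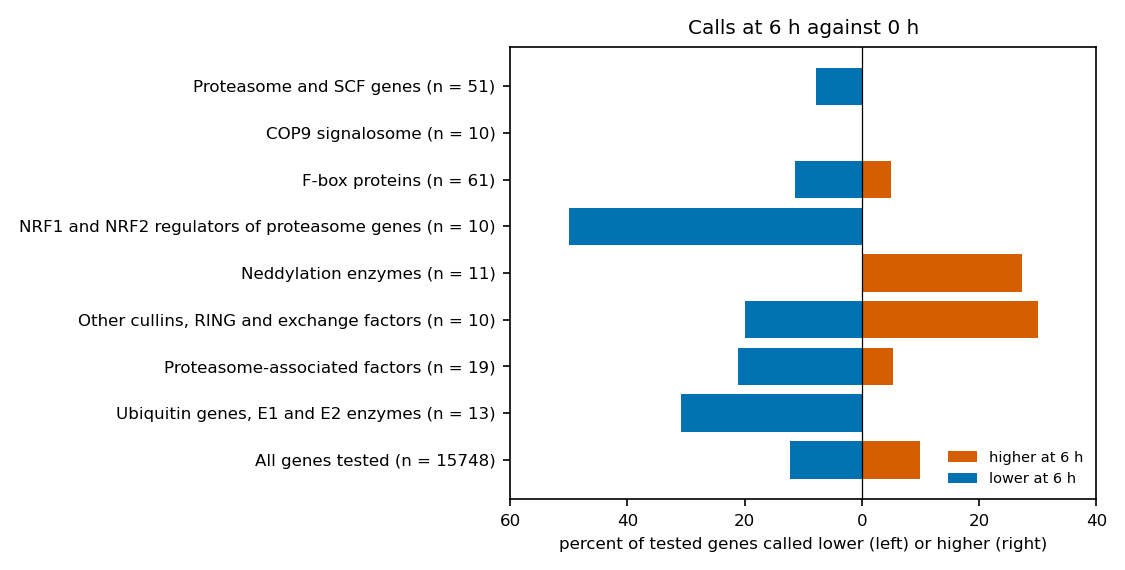
Percent of the tested genes of each list called lower (left of 0) or higher (right of 0) at 6 h against 0 h, with the number tested beside each name and all 15748 genes tested at the bottom. The proteasome and SCF genes had 7.84% called, all lower, and the COP9 signalosome none, beside 22.2% of all genes.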

How the data were processed

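Whole-well polyA RNA of 6 libraries, 2 at each of 3 times, was measured by RNA-seq. The deposited table holds raw counts, whole reads per Ensembl gene and library. Per the submitters' processing notes, the tools were HISAT2 2.2.1, featureCounts 2.0.3 and fastp 0.22.0 and the build was GRCm38; which annotation, strand setting and multi-mapping rule they used is not given in the sources used here, so overlapping genes and near copies are uncertain. Names, exon lengths and positions came from GENCODE M21 on GRCm38, which gave a symbol to 55227 of 55487 IDs.

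The rest was computed here in R 4.3.3 with edgeR 4.0.16 and, as an alternative, DESeq2 1.42.0. Genes were kept by filterByExpr (minimum count 10), which left 15748 genes and 99.9% of the counts. TMM-scaled libraries entered 1 quasi-likelihood fit with 3 group means, 3 residual and 13.5 prior degrees of freedom and no covariate. Calls are two-sided at a Benjamini-Hochberg adjusted p under 0.05 over all genes tested. CPM are TMM-scaled, RPKM divides them by exon length, and intervals use the t quantile of the fit. With 16357142 to 21846959 counts per library, intervals cover the spread between libraries, and Wilson intervals cover counting error only. Nothing in the labels says that replicates were grown separately, so a p-value here reflects the spread of these libraries alone, and that spread may be technical. As a check for duplicates, chi-square between replicates was 4.46, 2.05 and 6.82 per degree of freedom at 0, 3 and 6 h. No p-value was taken. Each pair differed by more than counting error, so none was a copied library. Such values do not show separate cultures.

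The genes and lists were chosen with earlier results of these data known. Named in full are the called genes, the cutting subunits, the SCF genes and those not tested; the lists name up to 4 called genes with the smallest adjusted p. A few list genes that meet this are not reported here. The remaining genes are given by role, and Psmd10, Psmd9, Psmg3 and Psme1 were singled out after their values were seen. Alternatives were other scalings, no filter, DESeq2, a replicate block, the 4 libraries compared, a feeder covariate and leaving out each library. The fit was tested on simulated data with planted changes, with an outcome not reported here. All planted changes were larger than those of the called proteasome and SCF genes, so the simulation does not check calls of that size.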

Additional observations from a re-analysis of the deposited data

How the results depend on the processing

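Cand1 and Rbx1 were called lower at 6 h against 0 h under all 13 alternatives, Psmb3 under 10 and Psmd11 under 5. Among proteasome and SCF genes, calls at 6 h against 0 h were 2 with DESeq2, 8 with the feeder covariate (6 lower, Psma2 and Psmb5 among them, and Cul1 and Psmg3 higher), 5 with library totals (3 lower, and Cul1 and Psmg3 higher) and 3 to 5 without single libraries; at 6 h against 3 h they were 1 with DESeq2 and 1 to 3 without single libraries. No alternative called one at 3 h. Over all genes, calls at 3 h, 29 as reported, were 234 with no filter, 12 with DESeq2, 82 with only the 4 libraries compared and 4 to 260 without single libraries, the lowest without the first 3 h library and the highest without the second 0 h library. Calls at 6 h against 0 h were 1701 with DESeq2, against 3503 as reported. For 6 h against 3 h they were 1449 with DESeq2, 1856 with the feeder covariate and 1531 to 3682 without single libraries, against 3375. With library totals the split turned to 2102 higher and 1430 lower at 6 h against 0 h and 2046 higher and 1285 lower against 3 h, and the median log2 fold change of all genes was 0.04 in both. The cause of these moves was not tested. Over 6116 genes, deviations of same-numbered libraries correlated at 0.206 (0 h and 3 h), 0.159 (0 h and 6 h) and 0.0335 (3 h and 6 h). These values are low but positive, and whether the numbers mark pairs is not settled by them. A replicate block gave 262 calls at 3 h, 4147 at 6 h against 0 h and 4142 at 6 h against 3 h. Without it there were 29, 3503 and 3375. Among proteasome and SCF genes the block gave 0, 6 and 4 calls. It added Psma2 and Psmb5 as lower at 6 h against 0 h and Psmb10 as higher at 6 h against 3 h. For Psmb8, Psmb10, Psmg3 and Psmg4, all under 10 CPM, the intervals reached beyond 1.2-fold in all 3 comparisons. Changes beyond 1.2-fold are therefore not excluded for them.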
